A study of Homo sapiens with 4 samples.

Results

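Phosphorylation of eIF2alpha is the switch of the integrated stress response, and 10 genes that set it were followed here: the substrate EIF2S1, the 4 kinases EIF2AK1, EIF2AK2, EIF2AK3 and EIF2AK4, the upstream factors GCN1, DELE1 and OMA1, and the 2 phosphatase regulatory subunits PPP1R15A and PPP1R15B. They were chosen by their known role, with earlier results of these data known. All were found by symbol, with 1 row each among the 78932 genes of the table. RNA was sequenced from RPMI 8226, an established human multiple myeloma cell line that the sample labels spell RPMI82266, after 72 hours with an antisense oligonucleotide of locked nucleic acid (LNA ASO), a short modified strand that pairs with a chosen RNA. The CELF2 group received an ASO against CELF2, an RNA-binding protein of splicing and mRNA stability, at 5 nM, and the control group received a control LNA ASO whose dose the labels do not give. Each group had 2 libraries, all from the same cell line and with no genetic change that the labels name. Whether they were separate cultures is not labelled, and the p-values therefore reflect the spread between these libraries alone, which may be technical. The labels do not say whether the numbers 1 and 2 of an ASO mark replicates or different oligonucleotides, and in the difference between the 2 CELF2 ASO libraries these cannot be told apart.

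eIF2 carries the initiator tRNA to the ribosome, and eIF2B recharges it with GTP after each round of initiation. When a kinase phosphorylates the alpha subunit, eIF2 binds eIF2B tightly and blocks it, so most translation slows while a few mRNAs, such as that of the transcription factor ATF4, are translated more. Plasma cells, from which myeloma arises, secrete much antibody, and the kinase PERK is a protein of the endoplasmic reticulum. Kinase activity and eIF2alpha phosphorylation are protein states, and mRNA counts do not measure them.

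Total counts were between 23599190 and 29161298 per library. CELF2, the target, had 128.0 and 127.9 CPM (gene counts scaled by the library total and a TMM factor) with the control ASO and 56.6 and 48.8 CPM with the CELF2 ASO (log2 fold change -1.28, edgeR adjusted p = 2.88e-05). The biological coefficient of variation was 13.7% within the CELF2 ASO pair and 3.64% within the control pair. Of 9 tested plasma cell markers, 3 rose and 4 fell, and summed marker levels were 3170 to 3380 CPM in the control and 3310 to 3860 CPM in the CELF2 ASO libraries. The markers of other cells summed to 267 to 268 and 40.2 to 67.0 CPM for T and NK cells (nearly all of it CD8B), 8.11 to 8.74 and 3.32 to 3.68 CPM for myeloid cells (LYZ at 0 counts in all libraries), and 122 to 124 and 91.1 to 91.2 CPM for stromal and epithelial cells. CD3D and NKG7 were at most 0.256 CPM in any library. Markers tested and called lower were 2 of 4 for T and NK cells, 3 of 4 for myeloid cells and 2 of 4 for stromal and epithelial cells. Among the last, KRT8 rose from 2.82 and 2.81 CPM to 6.35 and 8.2 CPM (edgeR adjusted p = 0.000681). Of all genes tested, 27.5% were called higher and 27.9% lower, so these small marker counts, those of plasma cells included, say little about cell identity. The part of other cells in the results was not tested.

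Of the 10 genes, 4 rose with the CELF2 ASO, 2 fell and 4 did not pass the threshold (edgeR quasi-likelihood test, Benjamini-Hochberg adjusted p under 0.05 over 19511 genes tested). Each of the 10 passed the filter on low counts. Among all genes tested, 55.5% were called, 27.5% higher and 27.9% lower, so a count of 6 called among 10 is near the background and says little about these genes as a set. Their median log2 fold change was 0.49, against 0.04 over all genes tested. For 8 of the 10 genes the libraries of one group lay wholly above or below those of the other, against 79.6% of all genes tested. The genes that rose were PPP1R15A, EIF2AK3, EIF2AK4 and PPP1R15B, and those that fell were EIF2S1 and GCN1.

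**Figure D1:**
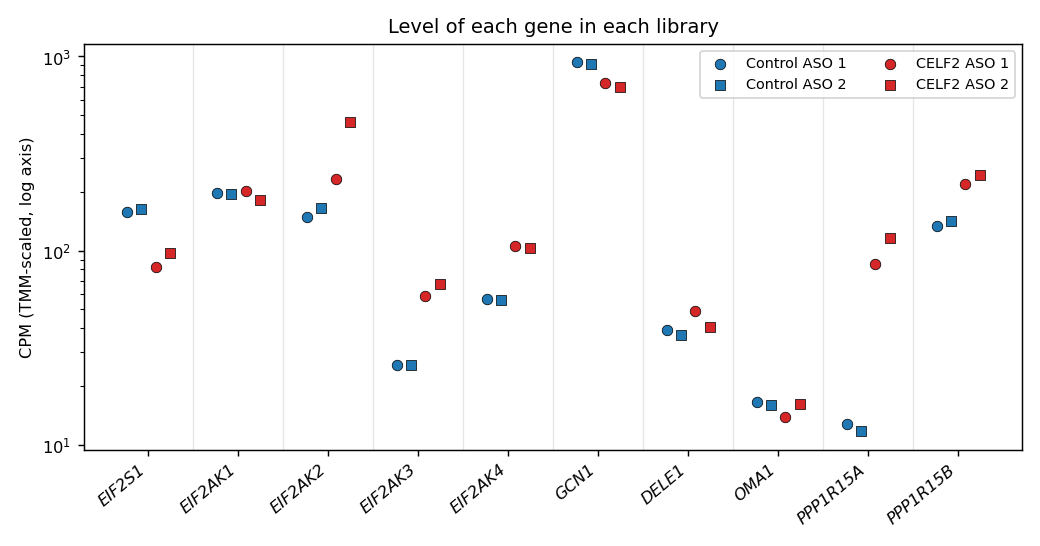
Level of each of the 10 genes in each library, in TMM-scaled CPM on a log axis; blue symbols are the control ASO libraries, red symbols the CELF2 ASO libraries, circles library 1 and squares library 2. PPP1R15A moves from 12.8 and 11.8 CPM to 85.7 and 117 CPM, and EIF2AK2 shows the widest gap between the red symbols, 233 and 459.9 CPM.

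**Figure D2:**
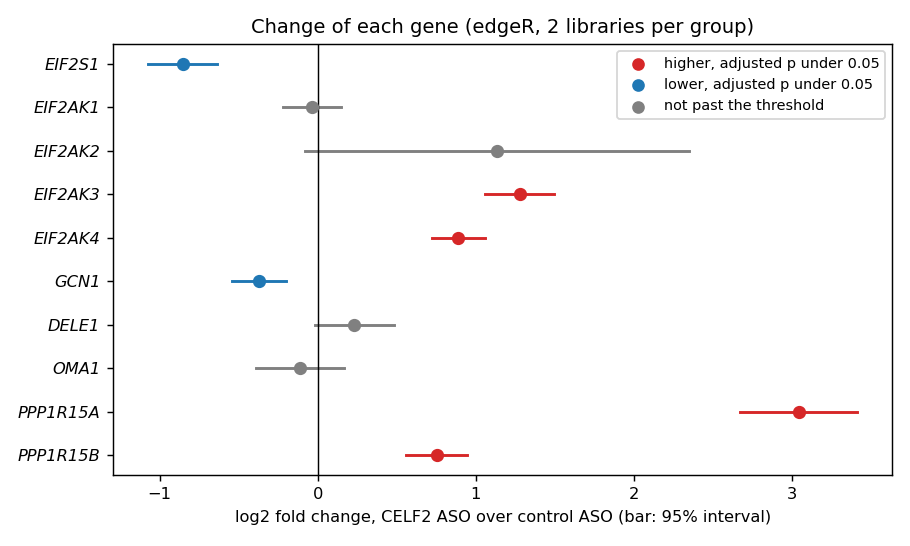
Log2 fold change of each gene, CELF2 ASO over control ASO, as a point with its 95% interval from the edgeR fit; red and blue mark genes past an adjusted p of 0.05, grey those that were not. The interval of EIF2AK2, -0.08 to 2.35, is the widest, and that of PPP1R15A, 2.67 to 3.41, lies farthest from 0.

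EIF2S1 encodes eIF2alpha itself, the protein that all 4 kinases phosphorylate (ENSG00000134001, GRCh38 chr14:67359997-67386516, plus strand). Its level was 159 and 165 CPM with the control ASO against 82.4 and 96.8 CPM with the CELF2 ASO. Both CELF2 ASO libraries were below both control libraries. EIF2S1 fell 1.81-fold (log2 fold change -0.85, SE 0.09, edgeR adjusted p = 0.000201). In these bulk libraries, less RNA per cell and fewer cells with that RNA cannot be told apart. EIF2S1 shares 269 exon bases with ATP6V1D on the opposite strand, and no strand setting is given, so a small part of the reads could belong to either gene. ATP6V1D rose in the same comparison (log2 fold change 0.46, edgeR adjusted p = 0.0181).

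The other eIF2 subunits moved the other way from EIF2S1. EIF2S3, the gamma subunit that binds GTP and the initiator tRNA, had 407 and 411 CPM with the control ASO against 605 and 602 CPM with the CELF2 ASO (log2 fold change 0.56, edgeR adjusted p = 0.000404). EIF2S2, the beta subunit, rose from 117 and 124 CPM to 155 and 173 CPM (log2 fold change 0.44, edgeR adjusted p = 0.00298). Without control library 1 the call of EIF2S2 was lost (log2 fold change 0.37, edgeR adjusted p = 0.0649), as was that of EIF2A (0.38, edgeR adjusted p = 0.0581). The eIF2B subunit genes EIF2B1 to EIF2B5 all fell, although EIF2B2 (log2 fold change -0.28) lost its call in 4 of 12 alternatives, among them each fit without a control library. The largest falls among them were those of EIF2B4, from 66.3 and 68.5 CPM to 28.4 and 27.9 CPM (2.4-fold, edgeR adjusted p = 1.62e-05), and EIF2B3, from 118 and 111 CPM to 51.6 and 50.9 CPM (2.24-fold, edgeR adjusted p = 1.99e-05). CDC123, which helps to assemble the eIF2 complex, fell 2.62-fold, from 142 and 145 CPM to 59.1 and 50.6 CPM (edgeR adjusted p = 2.25e-05). EIF2A, a separate initiation factor despite its name, rose (log2 fold change 0.41), and EIF5, which triggers GTP hydrolysis on eIF2, fell (-0.44). Among 11 tested genes of eIF2, eIF2B and their cofactors, 3 rose, 7 fell and EIF2D did not pass. Over all genes tested, 27.5% were called higher and 27.9% lower. The median log2 fold change of the 11 was -0.44 against 0.04 over all genes tested.

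EIF2AK3 encodes PERK, the kinase in the membrane of the endoplasmic reticulum that senses unfolded proteins in its lumen (ENSG00000172071, GRCh38 chr2:88556741-88627576, minus strand). Its level was 25.8 and 25.9 CPM with the control ASO against 58.3 and 67.0 CPM with the CELF2 ASO. The groups did not overlap, and the control libraries were nearly equal. EIF2AK3 rose 2.42-fold (log2 fold change 1.28, SE 0.09, edgeR adjusted p = 3.29e-05). Its exons share 781 bases with an antisense gene that held 2 or 3 counts in each library.

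Both of the named regulators of PERK in the lumen rose. DNAJC3, a co-chaperone that inhibits PERK and PKR, had 72.6 and 73.2 CPM with the control ASO against 167 and 196 CPM with the CELF2 ASO, a 2.49-fold rise (edgeR adjusted p = 2.92e-05). HSPA5, the chaperone BiP that holds PERK inactive, had 1125 and 1214 CPM against 1535 and 1771 CPM (log2 fold change 0.50, edgeR adjusted p = 0.00284), a call lost without control library 1 (0.42, edgeR adjusted p = 0.0574). The adaptor gene NCK1 did not pass (log2 fold change 0.18, edgeR adjusted p = 0.249). DNAJC3, HSPA5 and NCK1 belong to a list of modulators of the kinases, whose other genes are given below by kinase. Of its 11 tested genes, 4 rose, 4 fell and 3 did not pass, while 27.5% of all genes tested were called higher and 27.9% lower. The list's median log2 fold change was 0.05, against 0.04 over all genes tested.

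EIF2AK4 encodes GCN2, the kinase that responds to uncharged tRNA and stalled ribosomes when amino acids are short (ENSG00000128829, GRCh38 chr15:39934146-40035591, plus strand). It had 56.4 and 55.9 CPM with the control ASO against 105 and 103 CPM with the CELF2 ASO. The libraries within each group lay close together and the groups were far apart. EIF2AK4 rose 1.85-fold (log2 fold change 0.89, SE 0.07, edgeR adjusted p = 4.82e-05).

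GCN1, the ribosome-bound protein that activates GCN2, went in the opposite direction (ENSG00000089154, GRCh38 chr12:120127203-120194710, minus strand). It had 932 and 912 CPM with the control ASO against 732 and 693 CPM with the CELF2 ASO, with no overlap between the groups. GCN1 fell 1.29-fold (log2 fold change -0.37, SE 0.07, edgeR adjusted p = 0.00373). The call was lost without control library 1, at the same direction (log2 fold change -0.39, edgeR adjusted p = 0.0645). Per kilobase of exon, the EIF2AK4 level was 0.0488 and 0.0494 of the GCN1 level with the control ASO and 0.116 and 0.12 of it with the CELF2 ASO.

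Of 5 other genes around GCN2 and GCN1, IMPACT rose and RNF25 fell. IMPACT, which competes with GCN2 for GCN1, had 7.0 and 6.18 CPM with the control ASO against 10.8 and 8.79 CPM with the CELF2 ASO (log2 fold change 0.57, edgeR adjusted p = 0.0173). The call of IMPACT was lost without control library 2 (0.46, edgeR adjusted p = 0.141). RNF25, a ubiquitin ligase that acts with GCN1 on stalled ribosomes, fell from 21.2 and 20.6 CPM to 12.7 and 13.6 CPM (log2 fold change -0.67, edgeR adjusted p = 0.0014). RNF14, another ligase of that pathway (log2 fold change 0.05, edgeR adjusted p = 0.663), and ABCF3, a relative of a yeast partner of GCN1 (-0.11, edgeR adjusted p = 0.271), did not pass. MAP3K20, a kinase that senses collided ribosomes, was at most 0.0837 CPM in any library and was not tested.

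EIF2AK1 encodes HRI, the kinase known for sensing low heme and, through DELE1, mitochondrial stress (ENSG00000086232, GRCh38 chr7:6022244-6059230, minus strand). It had 198 and 196 CPM with the control ASO against 202 and 182 CPM with the CELF2 ASO, so the groups overlapped. Its log2 fold change was -0.04, with a 95% interval of -0.22 to 0.15 (edgeR adjusted p = 0.714), and the sign was positive with library totals alone (0.08), with the 1 CPM filter (0.01) and without CELF2 ASO library 2 (0.02). EIF2AK1 shares 532 exon bases, 9.59% of its exon length, with AIMP2 on the opposite strand. AIMP2 fell (log2 fold change -1.23, edgeR adjusted p = 2.9e-05), and its part in the EIF2AK1 counts was not tested.

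HSP90AA1 and CDC37 encode a chaperone and its kinase-specific partner, on which HRI depends for folding. HSP90AA1 had 1475 and 1499 CPM with the control ASO against 367 and 435 CPM with the CELF2 ASO, a 3.71-fold fall (edgeR adjusted p = 1.02e-05). CDC37 fell 2.38-fold, from 217 and 227 CPM to 91.5 and 94.8 CPM (edgeR adjusted p = 1.43e-05).

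DELE1 and OMA1 form the mitochondrial input to HRI: OMA1 is a protease of the inner membrane that cleaves DELE1, and the DELE1 fragment in the cytosol activates HRI. DELE1 (ENSG00000081791, GRCh38 chr5:141923808-141942047, plus strand) had 39.2 and 36.9 CPM with the control ASO against 48.9 and 40.3 CPM with the CELF2 ASO. The groups did not overlap, but the gap between control library 1 and CELF2 ASO library 2 was small. The log2 fold change was 0.23, with a 95% interval of -0.02 to 0.48 (edgeR adjusted p = 0.104). With library totals alone it passed (log2 fold change 0.35, edgeR adjusted p = 0.0485). The log2 fold change was 0.34 without CELF2 ASO library 2 and 0.09 without CELF2 ASO library 1. Such fits take their spread from the control pair alone.

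OMA1 (ENSG00000162600, GRCh38 chr1:58415384-58546802, minus strand) had 16.5 and 16.1 CPM with the control ASO against 14.0 and 16.3 CPM with the CELF2 ASO. CELF2 ASO library 2 lay between the control libraries. The log2 fold change was -0.11, with a 95% interval of -0.39 to 0.17 (edgeR adjusted p = 0.455). It was -0.25 without CELF2 ASO library 2, a fit that takes its spread from the control pair alone. It was 0.00 both without CELF2 ASO library 1 and with library totals alone. A change in protease activity or in DELE1 cleavage would not show in these counts.

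Genes of the mitochondrial proteins around OMA1 and DELE1 changed in both directions, with 3 of 12 higher and 7 lower. The shares over all genes tested were 27.5% higher and 27.9% lower. Their median log2 fold change was -0.46 against 0.04 over all genes tested. LONP1, the matrix protease that degrades DELE1, rose from 342 and 356 CPM to 714 and 634 CPM (1.93-fold, edgeR adjusted p = 7.8e-05). PHB1, a prohibitin of the inner membrane scaffold, fell from 249 and 243 CPM to 63.4 and 63.2 CPM (3.89-fold, edgeR adjusted p = 4.19e-06). CHCHD10, a protein of the intermembrane space, fell from 149.9 and 152 CPM to 68.1 and 75.7 CPM (2.1-fold, edgeR adjusted p = 3.67e-05). OPA1, the fusion protein that OMA1 cleaves under stress, fell (log2 fold change -0.54, edgeR adjusted p = 0.00098), and YME1L1, the protease that shares this substrate, rose (0.40, edgeR adjusted p = 0.00209). UBR4, a ubiquitin ligase that helps to end signalling by HRI and DELE1, rose (log2 fold change 0.41, edgeR adjusted p = 0.0024), while its partner gene KCMF1 did not pass (0.11, edgeR adjusted p = 0.227). YME1L1 and UBR4 lost their calls without control library 1 (edgeR adjusted p = 0.0869 and 0.0555) and without control library 2 (0.0506 and 0.113), with the direction kept.

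EIF2AK2 encodes PKR, the kinase activated by double-stranded RNA and itself an interferon-stimulated gene (ENSG00000055332, GRCh38 chr2:37099210-37157065, minus strand). It had 149 and 167 CPM with the control ASO against 233 and 459.9 CPM with the CELF2 ASO. Both CELF2 ASO libraries were above both control libraries, but library 2 was 1.98 times library 1. The change did not pass (log2 fold change 1.13, SE 0.40, 95% interval -0.08 to 2.35, edgeR adjusted p = 0.0951). Over 12 alternative settings the direction was the same and the gene passed in 6, with a log2 fold change of 1.55 without CELF2 ASO library 1 and of 0.54 without CELF2 ASO library 2. Those fits without a CELF2 ASO library take their spread from the control pair alone.

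The 20 interferon-stimulated genes of the list also differed between the CELF2 ASO libraries, as the plot of EIF2AK2 beside these genes shows. Their median log2 level over the control mean was 0.50 and 1.56 in CELF2 ASO libraries 1 and 2, where EIF2AK2 stood at 0.56 and 1.54. Summed over the list, the level was 5570 and 6410 CPM with the control ASO against 6060 and 12900 CPM with the CELF2 ASO. STAT2, a subunit of the interferon-activated factor ISGF3, rose from 60.1 and 67.1 CPM to 228 and 400.3 CPM (edgeR adjusted p = 0.00674, a call lost with no filter), and IRF9, its DNA-binding partner, from 3.97 and 4.18 CPM to 6.2 and 7.58 CPM (edgeR adjusted p = 0.00697). The other 18 of the 20 did not pass, while 27.5% of all genes tested were called higher and 27.9% lower. With all libraries kept, the count of the 20 called higher lay between 1 with no filter and 12 with library totals alone. For 14 of the 20 the groups did not overlap, against 79.6% of all genes tested. In CELF2 ASO library 1, 14 of the 20 genes were above both control libraries and 4 below both (MX1, ISG15, IFIT1 and IFI44), and in library 2 all 20 were above both. The part of the interferon response in the EIF2AK2 values was not tested. The protein activators and inhibitors of PKR showed no such gap: PRKRA, which encodes the activator PACT, had 17.2 and 17.3 CPM against 21.9 and 23.7 CPM (log2 fold change 0.40, edgeR adjusted p = 0.0119, a call lost without either control library at 0.14 and 0.132), and TARBP2, which encodes an inhibitor, had 31.2 and 30.1 CPM against 22.9 and 19.2 CPM (-0.54, edgeR adjusted p = 0.00485).

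**Figure D3:**
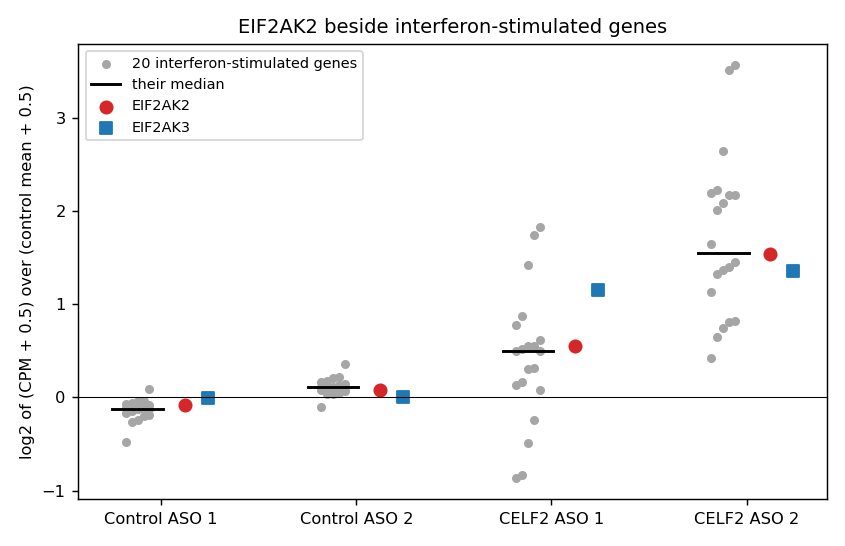
Level of 20 interferon-stimulated genes (grey points, black line at their median), EIF2AK2 (red) and EIF2AK3 (blue) in each library, as log2 of CPM plus 0.5 over the control mean plus 0.5. EIF2AK2 lies near the median of the grey points in both CELF2 ASO libraries, whose medians are 0.50 and 1.56, while EIF2AK3 is at a similar height in both.

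The start of EIF2AK2 holds a match to the interferon-stimulated response element core, GAAANNGAAA with N for any base, which was the single match of that motif among 9 of the 10 genes with a RefSeq promoter window. The 30 bases around it (RefSeq, GRCh38.p14, chr2:37156967-37156996, minus strand) are printed 5′ to 3′ because the EIF2AK2 values are set beside interferon-stimulated genes above, with the match in capitals.
EIF2AK2: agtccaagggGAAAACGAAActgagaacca
The motif was searched on both strands from 250 bases before to 50 after the start, and 3.57% of 35116 RefSeq promoter windows hold it. A match of letters does not show that a factor binds there.

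PPP1R15A encodes GADD34, the stress-inducible subunit that brings protein phosphatase 1 (PP1) to eIF2alpha and so reverses the phosphorylation (ENSG00000087074, GRCh38 chr19:48872392-48876057, plus strand). It had 12.8 and 11.8 CPM with the control ASO against 85.7 and 117 CPM with the CELF2 ASO. The lowest CELF2 ASO library was far above the highest control library. PPP1R15A rose 8.23-fold (log2 fold change 3.04, SE 0.16, 95% interval 2.67 to 3.41, edgeR adjusted p = 1.2e-05). This was rank 253 of 19511 by log2 fold change, and the largest change among the 10 genes.

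PPP1R15B encodes CReP, the subunit that supplies the same phosphatase in unstressed cells (ENSG00000158615, GRCh38 chr1:204403387-204411791, minus strand). It had 134 and 142 CPM with the control ASO against 221 and 245 CPM with the CELF2 ASO, again with no overlap. PPP1R15B rose 1.69-fold (log2 fold change 0.75, SE 0.08, edgeR adjusted p = 0.000208). On the scale of CPM per kilobase of exon, the sum of both genes went from 29.8 and 31.0 in the control libraries to 70.0 and 84.6 in the CELF2 ASO libraries. PPP1R15A made up 13.8% and 12.3% of that sum with the control ASO and 39.6% and 44.6% with the CELF2 ASO.

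Of the 3 PP1 catalytic subunit genes, PPP1CB rose, and PPP1CA and PPP1CC fell. PPP1CA fell from 177 and 177 CPM to 109 and 109.8 CPM (1.62-fold, edgeR adjusted p = 0.000136) and PPP1CC from 173 and 177 CPM to 128 and 146 CPM (1.28-fold, edgeR adjusted p = 0.0104, a call lost without control library 2). PPP1CB rose from 76.2 and 75.6 CPM to 91.5 and 87.1 CPM (log2 fold change 0.23, edgeR adjusted p = 0.0265), a call lost in 5 of 12 alternatives, among them DESeq2 and each fit without a control library. ACTB, whose product in monomer form joins the complex, fell 1.49-fold (edgeR adjusted p = 0.00405).

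Both phosphatase subunit genes hold short sequence matches before their RefSeq start that were searched for in all the genes, and the stretches that hold them are printed 5′ to 3′ because these genes rose together. Capitals mark matches to TGACG, the core of the cyclic AMP response element that ATF family factors bind, and to TGATGNAA, the core of the composite element bound by ATF4 and C/EBP factors. PPP1R15A is shown from 165 to 30 bases before the start (RefSeq, GRCh38.p14, chr19:48872256-48872391, plus strand) and PPP1R15B from 240 to 85 bases before it (chr1:204411902-204412057, minus strand).
PPP1R15A: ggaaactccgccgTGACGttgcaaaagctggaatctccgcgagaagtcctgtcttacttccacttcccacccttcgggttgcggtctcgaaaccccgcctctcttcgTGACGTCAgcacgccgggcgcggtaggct
PPP1R15B: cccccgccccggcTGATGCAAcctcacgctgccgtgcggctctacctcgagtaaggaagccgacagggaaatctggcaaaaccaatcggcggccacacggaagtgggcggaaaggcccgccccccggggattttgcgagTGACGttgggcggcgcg
In PPP1R15A the TGACG matches start 152 and 58 bases before the start, and the latter overlaps a match on the other strand. In PPP1R15B the TGATGNAA match starts 227 bases and the TGACG match 101 bases before the start.

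Over both strands, TGACG occurs in 24.6% of RefSeq promoter windows of the same length and TGATGNAA in 3.62%. Among the 9 genes with a window, 4 held TGACG (PPP1R15A, PPP1R15B, DELE1 and OMA1) and only PPP1R15B held TGATGNAA. The ER stress response element, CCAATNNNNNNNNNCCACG, was found in none of the 9 windows and in 0.0769% of all. EIF2S1, EIF2AK3, EIF2AK4 and GCN1 held no match to any of the 4 motifs, which says only that these letters are not in those windows. The matches are a description of the sequence and were not tested against the expression values.

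Levels can be compared between genes only per length. In the control libraries the order by mean CPM per kilobase of exon was GCN1 (95.5 ± 1.43, SD, n = 2), EIF2AK1 (35.5), EIF2S1 (28.6), PPP1R15B (26.4), EIF2AK2 (14.7), DELE1 (6.29), EIF2AK3 (4.76), EIF2AK4 (4.69), OMA1 (4.39) and PPP1R15A (3.96 ± 0.227). No neighbours in that order overlapped between libraries, although EIF2AK3 and EIF2AK4 differed by little. In the CELF2 ASO libraries PPP1R15A (32.7 ± 7.05) stood between EIF2AK1 (34.6 ± 2.53) and EIF2AK2 (32.2 ± 14.9), and the libraries of these 3 genes overlapped. OMA1 was then the lowest, at 4.07 ± 0.443. Exon length is the merged length of all annotated transcripts, so a gene with many long alternative transcripts, such as EIF2AK2 at 10.8 kb, is set lower on this scale.

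On the same scale, EIF2AK1 held the largest share of the 4 kinase genes in the control libraries, 60.4% and 58.6%. In the CELF2 ASO libraries its share was 46.9% and 34%, while EIF2AK2 went from 23.5% and 25.7% to 27.9% and 44.3%. EIF2AK3 went from 8.05% and 7.89% to 13.8% and 12.8%, and EIF2AK4 from 7.98% and 7.75% to 11.3% and 8.9%. In CELF2 ASO library 2 EIF2AK2 was the largest of the 4, and in library 1 EIF2AK1 was. The summed level of the 4 kinase genes was 2.1 and 2.07 times that of EIF2S1 with the control ASO and 5.32 and 5.64 times with the CELF2 ASO. Without EIF2AK2 these ratios were 1.6 and 1.54 against 3.84 and 3.14. Levels of PPP1R15A relative to EIF2S1 were 0.147 and 0.131 with the control ASO and 1.9 and 2.2 with the CELF2 ASO. These ratios carry no test and hold mRNA levels, not protein amounts.

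**Figure D4:**
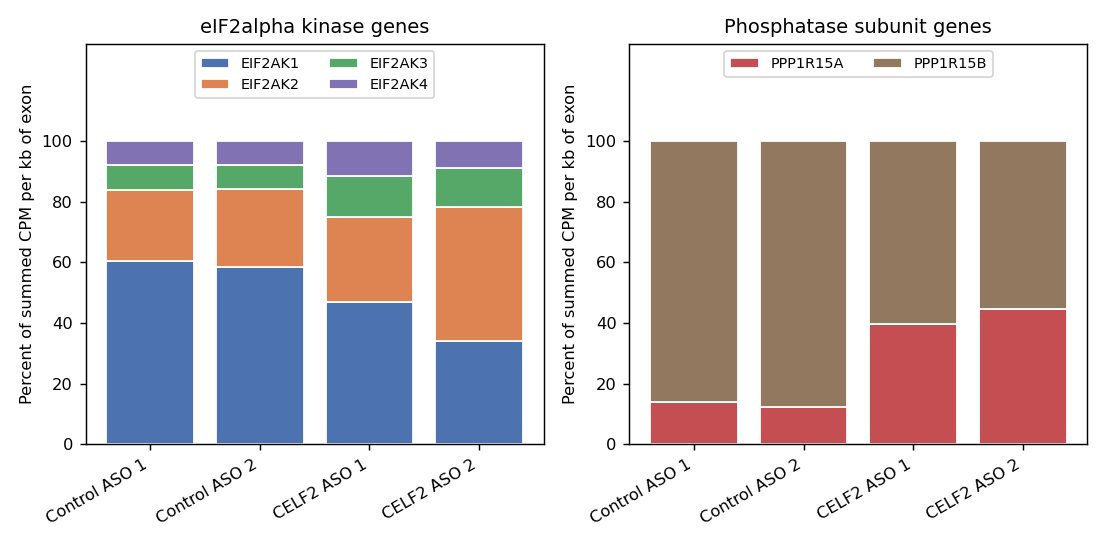
Share of each kinase gene (left) and of each phosphatase subunit gene (right) in the summed CPM per kilobase of exon, in percent, for each library. PPP1R15A grows from 13.8% and 12.3% to 39.6% and 44.6% of the phosphatase pair, and EIF2AK1 goes from 60.4% and 58.6% to 46.9% and 34% of the kinases.

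Downstream of eIF2alpha, the list of ATF4 and its dependent targets had 17 of 19 tested genes higher, ATF5 lower and SLC7A5 not past the threshold. Of all genes tested, 27.5% were called higher and 27.9% lower. The list was chosen with earlier results of these data known, so its count is a description and not independent evidence. The list's median log2 fold change was 2.34, against 0.04 over all genes tested. It was the same with FGF21, which had 3 or fewer control counts, at its bound. SESN2, a stress-induced inhibitor of mTORC1 signalling, rose 8.45-fold, from 52.4 and 57.3 CPM to 470.2 and 456 CPM (edgeR adjusted p = 2.16e-06). CHAC1, a glutathione-degrading enzyme, rose 11.2-fold, from 6.43 and 7.42 CPM to 79.1 and 75.5 CPM (edgeR adjusted p = 2.63e-06). TRIB3, a pseudokinase that binds ATF4, rose 5.92-fold, from 85.6 and 91.9 CPM to 499 and 553 CPM (edgeR adjusted p = 3.9e-06). ATF4 itself rose 4.79-fold, from 248 and 258 CPM to 1153 and 1270.2 CPM (edgeR adjusted p = 4.19e-06). The change of PPP1R15A, 3.04, was larger than the list's median, and those of EIF2AK3, EIF2AK4 and PPP1R15B were smaller.

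**Figure D5:**
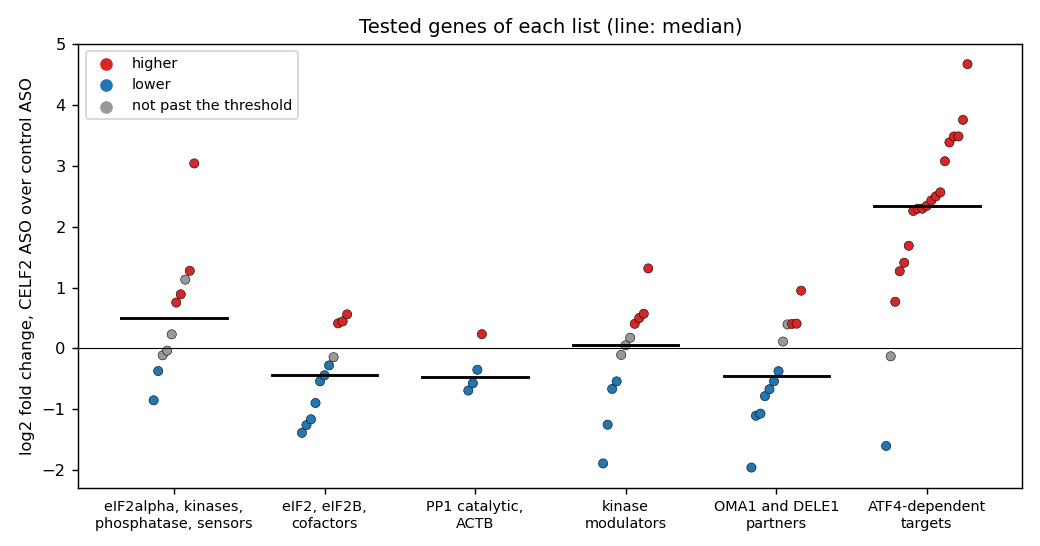
Log2 fold change, CELF2 ASO over control ASO, of each tested gene in the 10 genes of eIF2alpha control and in 5 lists around them, sorted within each list; red and blue mark genes past an adjusted p of 0.05, grey those that were not, and the line is the median. The ATF4-dependent targets have a median of 2.34, the 10 genes one of 0.49, and the eIF2 and eIF2B genes one of -0.44.

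Genes with the most similar profile over the 4 libraries were found by the distance between log2 CPM values after each gene's mean was subtracted, among 9123 genes with a symbol and a mean log2 CPM of at least 3. For PPP1R15A these were GTPBP2 (distance 0.11), TSC22D3 (0.21) and RGS3 (0.23). For EIF2AK2 they included CRTC3 (0.05) and SAMD9L (0.05), both highest in CELF2 ASO library 2. For EIF2AK3 they were the noncoding OIP5-AS1 (0.02), CSGALNACT2 (0.03) and CDK17 (0.03). With 4 libraries in 2 groups many genes share such a profile, and the distances are a description only.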

How the data were processed

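The deposited values are raw gene counts, all whole numbers. STAR 2.7.11b and Salmon 1.10.0, featureCounts 2.0.8 with Subread, bcl2fastq and the build GRCh38 are named in the submitters' processing notes. Not given in the sources used here are the annotation release, strand setting and handling of shared reads. The labels name both poly(A) selection and removal of ribosomal RNA. Of 79029 rows, 97 spike-in or reporter rows (1 to 3 counts per library) were left out. Symbols came from a name table (61481 IDs matched), with DDX58 matched as a RefSeq synonym, and positions and exon lengths from GENCODE 29.

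The test was run with edgeR 4.0.16 under R 4.3.3: filterByExpr (minimum count 10, total 15), TMM scaling and the two-sided robust quasi-likelihood test without covariates, adjusted by Benjamini-Hochberg over all genes tested, threshold 0.05. Standard errors are the absolute log2 fold change over the square root of F. The procedure was tested on simulated data with the same spread in both groups and few genes changed. Here the spread was unequal and 55.5% of genes were called, a setting which that test does not cover. Alternatives were RLE scaling, library totals, no filter, a 1 CPM filter, DESeq2 1.42.0, limma-voom 3.58.1 with and without group weights, a block on the label's number, and each library left out. With a library left out, the spread comes from the pair of the other group alone. Replicates differed beyond sampling noise (chi-square per degree of freedom 3.38 and 18.5). Named genes were the 10 genes, CELF2, up to 3 genes of a list by smallest adjusted p, other list members with their values, and overlapping genes; ATP6V1D and AIMP2 were named after their values were seen. Members and lists were chosen with earlier results of these data known. The named genes most alike in profile are the 3 nearest for each of 3 genes, of which 1 is not reported here.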

Additional observations from a re-analysis of the deposited data

How the results depend on the processing

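PPP1R15A, PPP1R15B, EIF2AK3, EIF2AK4 and EIF2S1 kept their direction and passed in all 12 alternatives, with log2 fold changes of 2.78 to 3.25, 0.66 to 0.87, 1.16 to 1.39, 0.83 to 1.01 and -0.99 to -0.73. GCN1 passed in 11 of 12. EIF2AK2 passed with library totals alone (edgeR adjusted p = 0.0304), the 1 CPM filter (edgeR adjusted p = 0.049) and DESeq2 (DESeq2 adjusted p = 0.0479). It also passed without either CELF2 ASO library, in fits that take their spread from the control pair alone. Its largest adjusted p was 0.426, in the edgeR fit with no filter. EIF2AK1 passed in none of the 12. Over 19511 genes the label's numbers did not show pairs: deviations of same-numbered libraries from their group means had a correlation of 0.03. That value does not settle pairing for single sets of genes. Median log2 levels of the interferon-stimulated genes over the control mean were -0.12 and 0.11 in control libraries 1 and 2. In CELF2 ASO libraries 1 and 2 they were 0.50 and 1.56, so library 2 was the higher in both groups. EIF2AK2 went the same way, and pairing was not tested for these genes. With a replicate block on the label's number 10809 genes were called, against 10823 without it. Then 5 of the 10 genes were higher instead of 4, as EIF2AK2 passed (edgeR adjusted p = 0.0116). With 1 library left out, the number of the 10 genes called higher was between 4 and 6 and the number called lower between 1 and 3, and 8602 to 12189 genes were called in all. Library totals alone moved the median log2 fold change of all genes from 0.04 to 0.16. Interferon-stimulated genes called higher numbered 2 in the reported fit, 1 with no filter, 12 with library totals alone, 8 with the 1 CPM filter, 9 with DESeq2, 10 with the block, and 5 to 20 with 1 library left out. The 95% intervals of DELE1 and OMA1, from 2 libraries per group, include 0.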
